A study of Mus musculus with 12 samples.

Results

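Irf1, Irf7 and Irf8 encode interferon regulatory factors, and the binding of RelA and Ikaros around these 3 genes was read from hotspot lists of mouse macrophages treated with lipopolysaccharide (LPS). A hotspot is a stretch of the genome enriched for sequence tags in a chromatin immunoprecipitation library. The members were all hotspots with at least 1 bp inside 3 fixed windows of the mm9 genome, chr11:53560000-53620000 for Irf1 (60 kb), chr7:148435000-148465000 for Irf7 (30 kb) and chr8:123230000-123360000 for Irf8 (130 kb). They numbered 43 of the 50455 hotspots in 10 libraries, with 24 in the Irf1 window, 10 in the Irf7 window and 9 in the Irf8 window. That total includes 765 hotspots of wild-type input DNA and leaves out hotspots of the other libraries that overlapped them. RelA accounted for 11 of the 43 and Ikaros for 32, and the input DNA had none.

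The cells were primary macrophages grown from the bone marrow of C57BL/6J mice and left without LPS, a bacterial cell wall molecule, or given it for 3 or 8 h. All 3 times were mapped for RelA in wild-type cells and again in cells with the genotype label littermate control. Ikaros was mapped at the same times in the wild type only, and input DNA came from untreated wild-type cells. No group used here is labelled as a knockout, and the genotype behind the littermate label is not described further. Each group has 1 library, so no test between conditions was possible and the wild-type and littermate RelA series were kept apart. The number of animals behind a library is not given. The file names of 6 of the libraries hold another time than the labels, and the labels were followed, so every statement about time rests on them.

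RelA is the DNA-binding and transactivating subunit of the common form of NF-kB, which enters the nucleus when LPS engages its receptor. Ikaros, the product of Ikzf1, is a zinc finger protein best known from lymphocyte development, which recruits chromatin remodelling and repressor complexes. Interferon regulatory factors share an amino-terminal DNA-binding domain and bind interferon-stimulated response elements. IRF1 is induced by interferon gamma and by inflammatory stimuli and activates inflammatory and antiviral genes. IRF7 is the factor that amplifies type I interferon production, and IRF8 is needed for the monocyte and macrophage lineage. The other genes of the family were not analysed here.

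In the RefSeq gene order on GRCm38.p6 the nearest protein-coding genes are Il5 and Slc22a5 on either side of Irf1, Phrf1 and Cdhr5 beside Irf7, and Cox4i1 and Foxf1 beside Irf8. That table is on another build than the hotspots, so hotspots were not placed in promoters, exons or introns, nor assigned to a gene within a window. The 250 bases before the first listed RefSeq start site of each gene (GRCm38.p6) are given to show what letters for these factors the annotated promoters hold. Capitals mark matches on either strand to the 10-base kB consensus bound by NF-kB, to GGGAA, the core bound by Ikaros, and to TTCNNNGAA, the gamma-activated site bound by STAT factors. GGGAA can lie inside the other matches.
Irf1: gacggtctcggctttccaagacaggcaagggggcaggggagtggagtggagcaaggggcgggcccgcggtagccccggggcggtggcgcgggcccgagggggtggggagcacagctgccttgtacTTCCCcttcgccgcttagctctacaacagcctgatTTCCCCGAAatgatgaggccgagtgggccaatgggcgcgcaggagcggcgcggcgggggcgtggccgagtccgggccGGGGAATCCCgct
Irf7: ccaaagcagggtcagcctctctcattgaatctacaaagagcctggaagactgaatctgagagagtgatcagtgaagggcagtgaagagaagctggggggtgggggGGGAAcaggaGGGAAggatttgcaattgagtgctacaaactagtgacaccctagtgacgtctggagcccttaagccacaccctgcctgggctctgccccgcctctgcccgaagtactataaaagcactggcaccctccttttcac
Irf8: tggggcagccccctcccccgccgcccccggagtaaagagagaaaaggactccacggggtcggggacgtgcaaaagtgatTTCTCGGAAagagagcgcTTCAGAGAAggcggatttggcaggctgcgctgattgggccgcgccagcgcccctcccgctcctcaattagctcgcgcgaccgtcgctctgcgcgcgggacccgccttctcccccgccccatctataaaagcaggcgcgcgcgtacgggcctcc

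Only the Irf1 sequence of these 3 held the kB consensus, as GGGGAATCCC from 13 to 4 bases before the start, which matched on both strands. Of 32851 promoter sequences of this length, 7.25% held that consensus. GGGAA was found at 3 places in the Irf1 sequence and 2 in that of Irf7, and was absent from the printed Irf8 sequence. It was in 56.2% of all promoters. TTCNNNGAA was found once at Irf1, inside TTCCCCGAA, and at 2 places at Irf8, against 7.02% of all promoters with any match. The core of the interferon-stimulated response element was in none of the 3 and in 2.98% of all promoters. A further start site listed for Irf1 held none of these motifs, and a further one for Irf8 held GGGAA at 2 places. These are letter matches alone, and no hotspot was placed on them.

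RelA was listed at these loci at 3 h only, whereas Ikaros was listed at all times. In wild-type cells RelA had 9 hotspots in the windows at 3 h and none at 0 or 8 h, and in littermate cells it had 2 at 3 h and again none at the other times. Ikaros hotspots numbered 2 before LPS, 1 each at Irf1 and Irf8, then 15 at both later times. Both resting hotspots were in the Ikaros lists of 3 and 8 h, as were 88.7% and 93.9% of all 853. The whole lists, after removal of hotspots overlapping input, held 47, 4972 and 1878 hotspots for wild-type RelA, 5805, 9999 and 5231 for littermate RelA, and 853, 7109 and 13796 for Ikaros. The z score is the authors' deposited score for each hotspot, and the background it is measured against is not stated. Depth per library is unknown, and the lists stop at different z scores. A region that is not listed may therefore still be bound below the threshold.

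**Figure D1:**
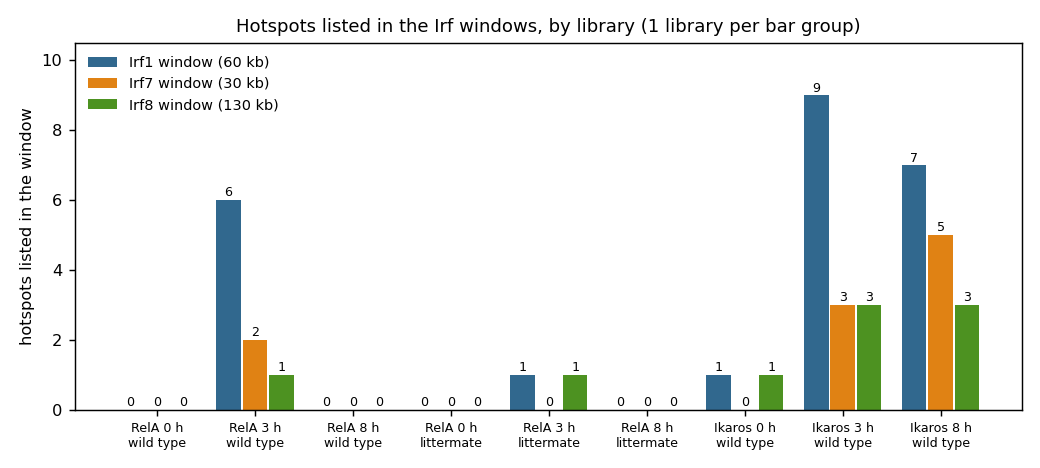
Number of hotspots listed in each window (vertical axis) for each immunoprecipitated library (horizontal axis), with 1 library per group of bars and no error bars. RelA bars stand at 3 h alone, with 6, 2 and 1 hotspots in wild-type cells, while Ikaros bars reach 9 in the Irf1 window at 3 h and 5 in the Irf7 window at 8 h.

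Joining hotspots that overlapped by 1 bp or more gave 21 separate regions, numbered by position within each window. They comprised 14 in the Irf1 window, 3 in the Irf7 window and 4 in the Irf8 window. Both factors were listed in 7 regions, Ikaros alone in 12 and RelA alone in 2, of which Irf8 region 1 was listed in littermate cells only. Over the whole lists, 37.1% of Ikaros hotspots of 3 h and 23.8% of those of 8 h overlapped wild-type RelA of 3 h. In the windows 6 regions were listed in 3 or more libraries, and 10 were listed in a single library. The whole lists were not joined into regions, so these region counts have no whole-list share to stand against. Per 100 kb, the windows held 4.09 wild-type RelA hotspots at 3 h against 0.188 over the span of the whole list, and 6.82 Ikaros hotspots at both 3 and 8 h against 0.269 and 0.522. The windows were placed on known genes, so these densities describe the choice of windows as well.

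**Figure D2:**
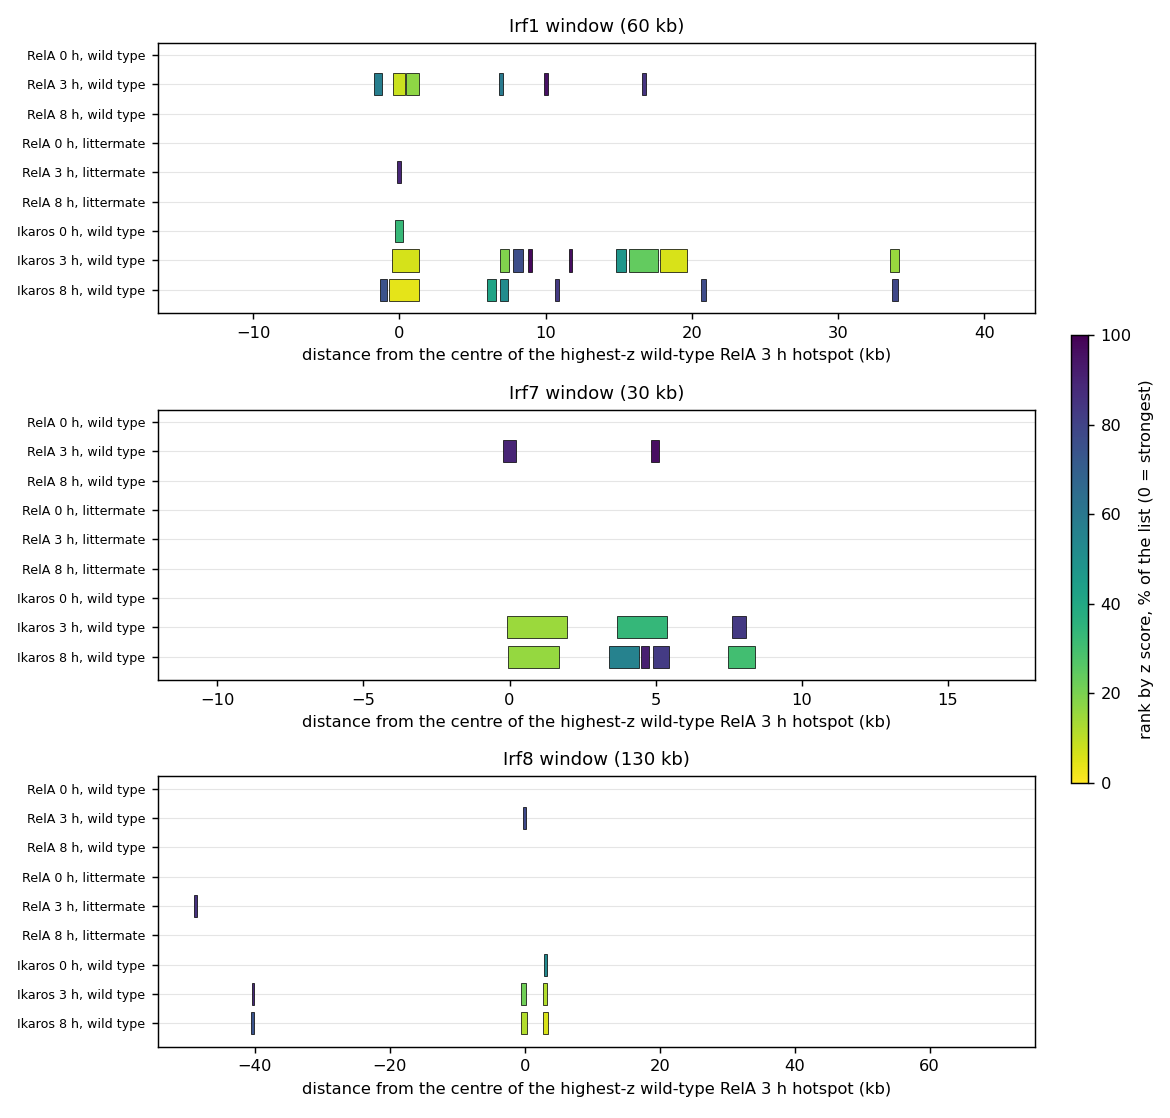
Hotspots of the 9 immunoprecipitated libraries (rows) along each window, drawn to scale by distance in kb from the centre of the highest-z wild-type RelA hotspot at 3 h. Colour gives the rank by z score as a percentage of the hotspot's own list, with 0 the strongest. The Irf1 window has a dense Ikaros run at 3 h, 15 to 20 kb from the origin, with no listed counterpart at 8 h.

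The highest z score of each factor in the windows lay at the left of the Irf1 window, in region 2, chr11:53575790-53577865. This region was listed in 5 libraries. In wild-type cells at 3 h RelA formed a pair of hotspots there. The first, chr11:53576091-53576903, had a highest tag density of 44.6 and a z score of 31.2, rank 401 of 4972. The second, chr11:53576976-53577865, had a density of 26.9 and a z score of 22.2, rank 853. Every other RelA hotspot in the windows ranked below the middle of the list by z score.

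Littermate cells at 3 h had a single RelA hotspot in the region, chr11:53576325-53576613, which lies within the first wild-type hotspot. Its highest density was 12.1 and its z score 9.48. The ranks by the 2 measures differ widely in that library, 1834 of 9999 by density and 8915 by z score. Of the 401 wild-type hotspots with a z score of 31.2 or more, 94.0% (exact Clopper-Pearson 95% interval 91.2 to 96.1) were in the littermate list, and the first hotspot was among them. The second was not in it, while 83.0% (80.3 to 85.5) of the 853 hotspots at least as strong as it were. Of the 9 RelA hotspots of the windows this 1 was in the littermate list (exact 95% interval 0.281% to 48.2%), against 34.4% of all 4972 hotspots, a share that the interval includes.

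Ikaros occupied Irf1 region 2 at every time. In resting cells it was a narrow hotspot, chr11:53576227-53576738, 511 bp wide, with a density of 18.2 and a z score of 15.1. It ranked 282 of 853 by z score and 621 by density. Its centre lay 14.5 bp to the left of the centre of the first RelA hotspot of 3 h. At 3 h the Ikaros hotspot was 1892 bp wide, with a density of 49.7 and a z score of 28.6, rank 464 of 7109. At 8 h it was 2042 bp wide, with a density of 52.5 and a z score of 36.6, rank 553 of 13796. The 3 and 8 h hotspots ranked 52 and 38 by width in their lists, and each spanned nearly all of both RelA hotspots, covering between 96.3% and 100% of them.

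By 8 h no RelA hotspot was listed at region 2 in either series. Retention of wild-type RelA hotspots followed strength, and both hotspots of this region stood where most are retained. Of the 401 hotspots with a z score at least that of the first, 358 were listed at 8 h, 89.3% (85.8 to 92.1), and this hotspot was among the 43 that were not. For the second the figures were 676 of 853, 79.2% (76.4 to 81.9), with 177 not listed. Both shares include stronger hotspots. In the decile of the list that held the first, 86.7% (83.4 to 89.6) were listed at 8 h. In the decile that held the second it was 67.4% (63.1 to 71.5). Ranked by highest density, 89.5% (85.7 to 92.6) of those at least as dense as the first were listed at 8 h. The lowest z score in the 8 h list was 10.9, and since lists differ in scale and depth is unknown, binding below its threshold was not tested. The nearest wild-type RelA hotspot at 8 h lay 375 kb beyond the right end of the Irf1 window and 1912 kb before its left end.

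Across the windows none of the 9 wild-type RelA hotspots of 3 h was listed at 8 h, which allows a share of up to 33.6% (exact Clopper-Pearson 95% interval), against 31.3% for the whole list. The 2 shares therefore cannot be separated by their counts. The interval also treats the 9 as independent, which neighbouring hotspots of 1 library are not. Restricting the list to z scores above the lowest at 8 h left 4 of the 9, all at Irf1 and none retained, against 42.1% (40.4 to 43.7) of 3381 hotspots. These 4 include the neighbouring pair of region 2 and are too few to separate the shares either. The same 9 were also absent at 0 h, where 0.744% of the whole 3 h list was present.

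**Figure D3:**
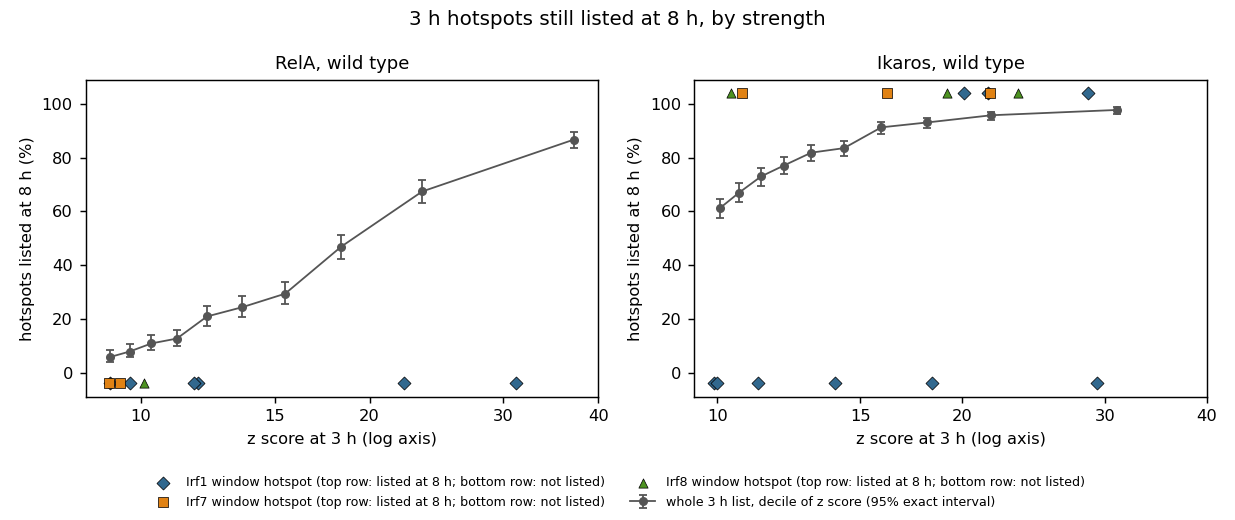
Percentage of 3 h hotspots listed at 8 h (vertical axis) against z score at 3 h (horizontal log axis), in deciles of the whole list with exact 95% intervals (grey), for RelA (left) and Ikaros (right) in wild-type cells. Coloured symbols are hotspots of the windows, in the top row if listed at 8 h and in the bottom row if not. Retention of RelA reached 86.7% in the highest decile, where the first Irf1 region 2 hotspot is in the bottom row.

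The remaining RelA hotspots of the Irf1 window were weaker. Region 4, chr11:53583288-53583973, was the other Irf1 region with RelA at 3 h and Ikaros at both later times. RelA had a density of 17.7 and a z score of 11.7 there, rank 2946 of 4972. Ikaros had a density of 32.5 and a z score of 20.1 at 3 h, rank 1346 of 7109, and a density of 21.5 and a z score of 14.1 at 8 h, rank 7143 of 13796. Its Ikaros z scores thus stood in the reverse order to those of region 2, although z scores from different lists are not a measure of change.

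Irf1 region 1, chr11:53574736-53575640, joined a RelA hotspot at 3 h (density 18.7, z score 11.9) to an Ikaros hotspot listed only at 8 h (density 18.7, z score 11.6). Region 7, chr11:53586399-53586651, had RelA at 3 h and no Ikaros at any time. With a density of 10.7 and a z score of 9.10 it ranked 4751 of 4972. In region 11, described with its neighbours next, RelA had a density of 16.4 and a z score of 9.68. These hotspots place RelA at 5 regions over 18.7 kb of the Irf1 window, and only in region 2 did it pass the median z score of its list.

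Ikaros formed a broad run in the Irf1 window, to the right of region 2, that was listed only at 3 h. Regions 10, 11 and 12 lay 202 and 120 bp apart and together spanned chr11:53591331-53596172, 4841 bp. Their highest densities at 3 h were 24.0, 33.8 and 41.4, and their z scores 14.0, 18.4 and 29.3. Region 12 ranked 432 of 7109 by z score, slightly ahead of region 2 (464). Regions 11 and 12 were 2005 and 1853 bp wide, ranks 46 and 55 of the list by width. At 8 h the Ikaros list had nothing between 53587428 and 53597136, a gap of 9.71 kb around the run, and at 0 h it had nothing there either.

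Few Ikaros hotspots at least as strong as region 12 were absent from the 8 h list. Of the 432 Ikaros hotspots at 3 h with a z score of 29.3 or more, 423 were listed at 8 h, 97.9% (96.1 to 99.0), and region 12 was among the 9 that were not. At or above the z score of region 11 the share was 96.0% of 1718, and for region 10 it was 93.1% (92.2 to 94.0). These shares include much stronger hotspots. In the decile of the list that held region 11 the share was 93.1% (91.0 to 94.9). In the decile that held region 10 it was 83.5% (80.6 to 86.2). The 8 h list was the longer one, and its lowest z score was 9.75 against 9.82 at 3 h. RelA was listed in region 11 alone among these 3, at chr11:53593120-53593392, and it too was not listed at 8 h.

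Other Ikaros hotspots of the Irf1 window also differed between lists. Of its 13 Ikaros regions, 6 were listed at 3 h and not at 8 h, 4 at 8 h and not at 3 h, and 3 at both. Counted by hotspot over the whole lists, 82.1% of those of 3 h were listed at 8 h, and 42.2% of those of 8 h at 3 h. The other 3 h regions missing at 8 h were regions 5, 6 and 9, with z scores of 11.2, 9.92 and 10.0. In the deciles of the whole list that held them, 73.0%, 61.1% and 61.1% were listed at 8 h. Those listed only at 8 h were regions 1, 3, 8 and 13, with z scores of 11.6, 15.7, 10.9 and 11.4. Region 14, chr11:53610040-53610678, stood apart from the rest by 12.5 kb. Ikaros had a density of 50.4 and a z score of 21.5 there at 3 h, the highest density in the windows at that time, and a density of 20.2 and a z score of 11.3 at 8 h, where it ranked 10879 of 13796. The length covered by Ikaros hotspots in the Irf1 window was 511 bp at 0 h, 8835 bp at 3 h and 4782 bp at 8 h, with mean densities over it of 8.53, 13.9 and 11.8.

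In contrast to Irf1, all 3 Ikaros regions of the Irf7 window and all 3 of the Irf8 window were listed at both 3 and 8 h. Over the windows together, 9 of the 15 Ikaros hotspots of 3 h were listed at 8 h (exact 95% interval 32.3% to 83.7%), against 82.1% of the whole list, and the 6 that were not were all at Irf1. In the other direction, 11 of the 15 hotspots of 8 h had been listed at 3 h, 73.3% (44.9 to 92.2), against 42.2% of the whole list. Of these 11, 3 lay in Irf7 region 2 over a single hotspot of 3 h. Counted by region, 9 of the 13 Ikaros regions of 8 h had been listed at 3 h. The difference between loci was not tested, since neighbouring hotspots of a locus share their library and are not independent.

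At Irf7, no hotspot of either factor was listed before LPS. Region 1, chr7:148446797-148448996, carried a broad Ikaros hotspot after it. The hotspot was 2056 bp wide at 3 h, with a density of 28.1 and a z score of 21.6, rank 1075 of 7109. At 8 h it was 1732 bp wide, with a density of 30.7 and a z score of 23.7, rank 2187 of 13796. A weak RelA hotspot, chr7:148446797-148447229, lay at its left edge at 3 h, with a density of 16.3 and a z score of 9.39, rank 4462 of 4972. The centre of the Ikaros hotspot lay 955 bp to the right of the RelA centre, the widest such offset in the windows at 3 h.

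Irf7 region 2, chr7:148450412-148452457, was a single Ikaros hotspot of 1722 bp at 3 h, with a density of 25.2 and a z score of 16.2. At 8 h the same ground held 3 Ikaros hotspots, with z scores of 13.6, 10.3 and 10.9 and a highest density of 21.6 among them. The 5 Ikaros hotspots of the Irf7 window at 8 h thus fell in the same 3 regions as the 3 of 3 h. RelA at 3 h had a density of 10.4 and a z score of 9.08 there, rank 4781 of 4972. Region 3, chr7:148454474-148455409, had Ikaros alone. Its z score was 10.7 at 3 h, rank 5924 of 7109, and 18.3 at 8 h, rank 4180 of 13796, with densities of 16.4 and 22.1. Ikaros hotspots covered 4244 bp of the Irf7 window at 3 h and 4520 bp at 8 h, and littermate RelA had none.

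The Irf8 window held its strong sites close together, 3163 bp apart by centre. Region 4, chr8:123286997-123287726, carried Ikaros at every time and RelA at none. Ikaros there had a density of 23.3 and a z score of 12.8 at 0 h, rank 452 of 853. At 3 h the density was 49.7 and the z score 23.4, rank 832 of 7109, and at 8 h they were 67.0 and 32.6, rank 843 of 13796. The density at 8 h was the highest of any member and ranked 279 in its list. Of the 832 Ikaros hotspots at 3 h with at least this z score, 59.6% (56.2 to 63.0) overlapped RelA at 3 h, and this region was among the 336 that did not.

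Irf8 region 3, chr8:123283788-123284609, had both factors after LPS. RelA at 3 h, chr8:123284072-123284551, had a density of 13.5 and a z score of 10.1, rank 3877 of 4972. Ikaros had a density of 31.0 and a z score of 19.1 at 3 h, rank 1540 of 7109, and a density of 35.5 and a z score of 26.6 at 8 h, rank 1574 of 13796. Region 2, chr8:123243752-123244225, lay 40.2 kb to the left and carried weak Ikaros hotspots, with z scores of 10.4 at 3 h and 11.7 at 8 h. The remaining region, chr8:123235368-123235747, was a littermate RelA hotspot at 3 h with a density of 12.1 and a z score of 9.78, and no wild-type list had a hotspot there.

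**Figure D4:**
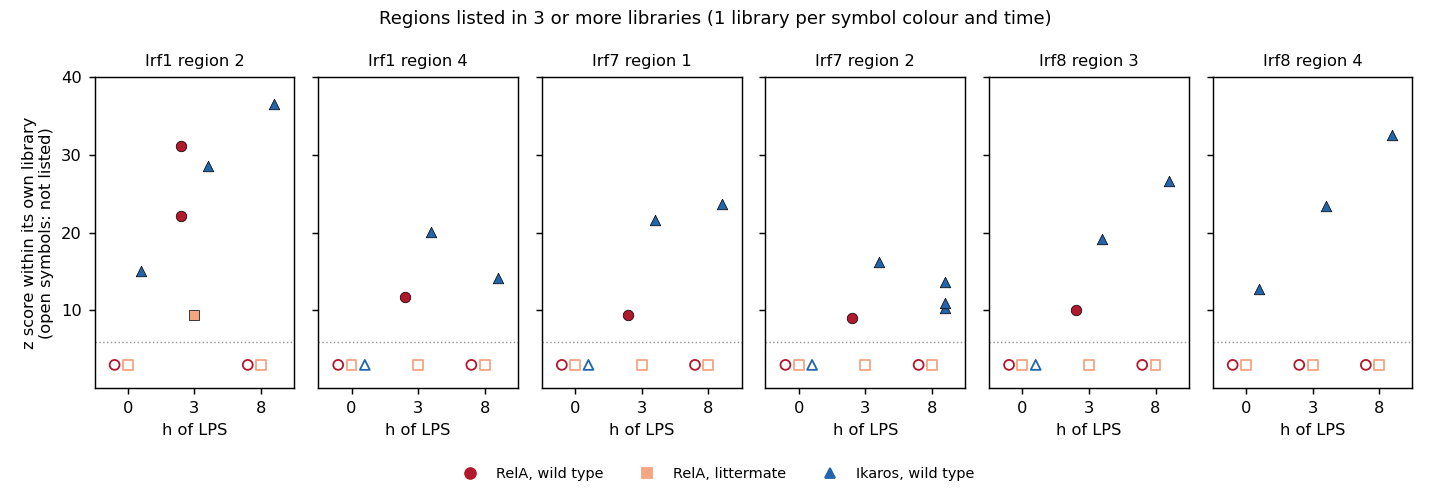
z scores (vertical axis) at 0, 3 and 8 h of LPS (horizontal axis) for the 6 regions listed in 3 or more libraries. Filled symbols are listed hotspots and open symbols below the dotted line mark libraries with none. z scores belong to separate lists and are shown side by side. RelA symbols are filled at 3 h alone, and Ikaros symbols are filled at 0 h in Irf1 region 2 and Irf8 region 4.

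Where RelA was listed, Ikaros was usually listed with it, at a share that the counts cannot separate from that of the whole list. Of the 9 wild-type RelA hotspots of 3 h, 7 were also listed for Ikaros at 3 h, 77.8%, against 54.0% of all RelA hotspots, and the exact interval of the former reached below the latter. The exceptions were Irf1 regions 1 and 7. For Ikaros at 8 h the count was again 7 of 9, against 66.5%, and there the exceptions were Irf1 regions 7 and 11. Ikaros at 0 h overlapped 1 of the 9, the first hotspot of Irf1 region 2, against 5.51% of the whole list. Seen from Ikaros, 6 of 15 hotspots at 3 h carried RelA, a share close to the 37.1% of the whole list.

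At shared sites the RelA hotspots of 3 h were between 251 and 889 bp wide and the Ikaros hotspots they overlapped between 612 and 2056 bp. Both RelA hotspots of Irf1 region 2 were wide for their list, with ranks 626 and 357 of 4972 by width, and the Ikaros hotspots of Irf1 region 4 and Irf8 region 3 ranked 2404 and 1374 of 7109. Each hotspot was then required to cover at least 50% of the other. Of the 9 RelA hotspots, 1 matched Ikaros at 3 h in this way, that of Irf8 region 3. The whole RelA list had 42.1%, which the exact interval for 1 of 9 (0.281% to 48.2%) includes. The counts therefore cannot separate these shares. Ikaros at 3 h had 5 of its 15 window hotspots among the widest 1% of its list, in Irf1 regions 2, 11 and 12 and Irf7 regions 1 and 2. At 8 h 2 of 15 were, in Irf1 region 2 and Irf7 region 1. None of the Irf8 hotspots was, their widths running from 337 to 821 bp in the Ikaros lists after LPS.

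The hotspots nearest the window edges are given because the windows decide membership. The outermost hotspots inside lay 14.7 and 9.32 kb from the ends of the Irf1 window, 11.8 and 9.59 kb from those of Irf7, and 5.37 and 72.3 kb from those of Irf8. Just beyond the right end of the Irf1 window, at 12.3 kb, Ikaros at 3 h had a hotspot with a z score of 16.0. Within that hotspot, 12.4 kb from the window end, RelA at 3 h had one with a density of 18.5. To the left of the Irf8 window Ikaros was listed at 6.06 kb at 3 h (z score 13.0) and at 5.64 kb at 8 h (z score 15.3). Farther out, 19.5 kb before the window, RelA at 3 h had a z score of 17.3, above the 10.1 of the RelA hotspot inside. Outside the Irf7 window the nearest hotspot, Ikaros at 3 h, lay 76.0 kb to the left.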

How the data were processed

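Each file lists the hotspots of 1 library. Per the submitters' processing notes, the build was mm9 and CASAVA was used. Not given in the sources used here are the aligner, hotspot caller, threshold, use of input and whether starts count from 0 or 1. Coordinates are printed as deposited. The authors deposited for each hotspot the highest and mean tag density, a signal whose scaling is not stated, a z score and its p-value, per the file headers. The p-value was not used further. Densities and z scores are the authors' values and describe or rank hotspots within a list.

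Hotspots overlapping a wild-type input hotspot by 1 bp or more were removed before ranking, and none lay in the windows. Rank 1 is the highest. Shares carry exact Clopper-Pearson 95% intervals, which cover counting error alone. They treat hotspots as independent, although neighbouring hotspots of a window are not. Overlap counting was tested on simulated lists against bedtools 2.31.1. Python 3.11.15, numpy 2.4.6, pandas 2.3.3, scipy 1.17.1 and matplotlib 3.10.9 were used. Regions listed in 3 or more of 9 immunoprecipitated libraries, and the highest z score of each factor in each window, were to be named in full. Other regions named were chosen after their values were seen. The members, windows and lists were chosen with earlier results of these data known. Of 12 labelled samples, the littermate and knockout inputs were not analysed here. Promoter sequences are RefSeq's (GRCm38.p6), with all 3 members matched.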

Additional observations from a re-analysis of the deposited data

How the results depend on the processing

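Across 15 counts and shares over the windows, 52 of 60 alternatives left the value within 1.5 times the count or within the exact 95% interval of the share, and 8 moved it. No change followed from keeping hotspots that overlap input, from a highest density of 10 or more, or from windows narrowed by 5 kb at each end. None could follow, since no window hotspot overlapped input and none had a highest density under 10. The outermost hotspot also lay 5.37 kb inside its window. These settings gave 15, 15 and 9 of the 52 unmoved values. Reciprocal overlap moved 2 values and left 4, and the upper 50% by z score moved 6 and left 9. Holding each list to its upper 50% by z score left 2 wild-type RelA hotspots at 3 h instead of 9, both in Irf1 region 2, 0 littermate RelA hotspots at 3 h instead of 2, 1 Ikaros hotspot at 0 h instead of 2, and 6 at 8 h instead of 15. Under that setting 100% of the remaining RelA hotspots overlapped Ikaros at 3 h and 0% were in the littermate list. Reciprocal overlap of at least 50% gave 11.1% with Ikaros at 3 h instead of 77.8%, and 0% in the littermate list instead of 11.1%. It also gave 46.7% instead of 73.3% for Ikaros hotspots of 8 h already listed at 3 h, a value still inside the interval. Ranking by highest density in place of z score changed all 23 positions of hotspots in the 6 regions listed in 3 or more libraries. These positions moved by 1.06 to 70.8 percentage points of the list, with a median of 5.07. Of these, 3 crossed the middle of the list: Ikaros at 0 h in Irf1 region 2 (33.1% by z score, 72.8% by density) and Irf8 region 4 (53.0% and 40.7%), and littermate RelA in Irf1 region 2 (89.2% and 18.3%). No paired analysis was possible because samples carry no replicate numbers and no test was run. The overlap of RelA with Ikaros at 8 h has no value, since RelA had no hotspot there. With 1 library per group none could be left out, and with depth unknown the weakest binding each library could show is unknown too.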
